A study of Mus musculus with 18 samples.

Results

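Livers of mice fed 1,5-naphthalenediamine (NDA) were compared directly with livers of mice fed N-(1-naphthyl)ethylenediamine dihydrochloride (NED), on 3 arrays each, which are 6 of the 18 arrays of the study. The 6 arrays were taken by the treatment named in their labels, and 12169 genes were tested on them. The study asks whether gene expression after 13 weeks of dosing can predict which chemicals give liver tumours in long rodent bioassays, and its labels call NDA a positive and NED a negative liver carcinogen. All animals were female B6C3F1 mice, 5 weeks old at the start and 18 weeks old at sampling. The NDA group (animals 2, 4 and 5) and the NED group (animals 12, 14 and 15) both received 2000 ppm of their compound in feed, 7 days per week. The feed control group (animals 27, 28 and 29) received rodent chow alone. The other 9 arrays (2,3-benzofuran, pentachloronitrobenzene and corn oil control, 3 each) entered the estimate of the spread, the filter on low signal, the choice of probe set per gene and the background level. Each array holds whole-liver RNA of 1 animal, so a lower signal of a cell type's genes cannot be told apart between fewer such cells and less RNA per cell.

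Both compounds are built on naphthalene. NDA carries a primary amino group on each of its rings; NED carries a single nitrogen on the ring system, which is extended by an aminoethyl side chain, and was given as a salt. Doses were matched by weight in feed and not by moles, and this was the only pair of structurally related compounds compared. The liver handles arylamines through cytochrome P450 enzymes of the Cyp1 family, acetyltransferases, sulfotransferases and glucuronosyltransferases. Planar aromatic compounds can activate the aryl hydrocarbon receptor, which induces Cyp1a1 and Cyp1a2 through xenobiotic response elements. Reactive metabolites can release the transcription factor NRF2 from its inhibitor KEAP1, and NRF2 then induces glutathione enzymes, reductases and efflux pumps through antioxidant response elements.

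Values are the deposited log2 signals, and each difference is a mean of NDA minus the mean of NED on that scale, with the standard error from a limma fit to all 18 arrays and its Benjamini-Hochberg adjusted p over all tested genes. A gene was called where that p was under 0.05. Of 12169 genes, 666 were called, which is 5.47%: 427 (3.51%) were higher and 239 (1.96%) were lower with NDA. The median difference over all genes was -0.00. The split depended on scaling: quantile normalization gave 457 higher and 414 lower, and centring each array on the median of the tested genes gave 447 higher and 392 lower. The difference reached 2-fold for 65 of the genes called higher and 28 of those called lower. The 3 arrays of one group lay wholly above the 3 of the other for 3060 genes (25.1%), and for 662 of the 666 called genes. At the other end, the 95% interval of the difference lay within 1.5-fold for 9627 genes, or 79.1%.

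**Figure D1:**
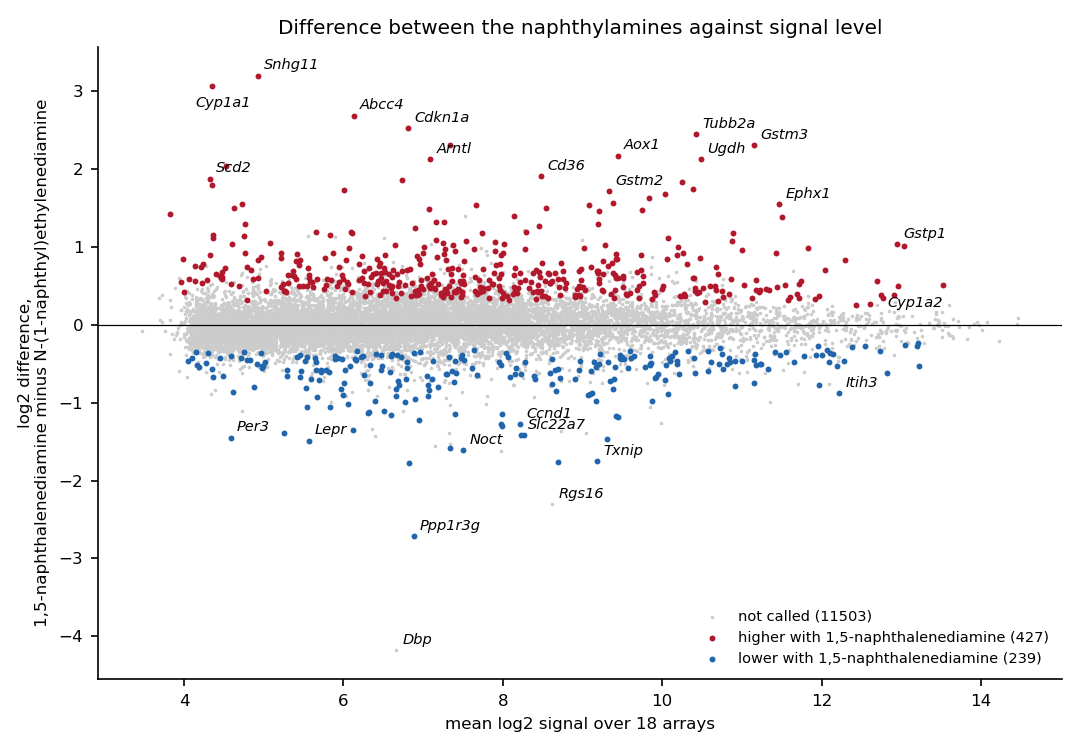
The log2 difference of NDA minus NED (vertical axis) is plotted against the mean log2 signal over 18 arrays (horizontal axis) for 12169 genes, with called genes coloured and leading genes named. Called genes occur at all signal levels, and Snhg11, Cyp1a1, Abcc4 and Tubb2a stand at the top.

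The 2 groups also differed in RNA quality. The RNA integrity number in the labels was 8.83 ± 0.0577 for NDA, 7.83 ± 0.231 for NED and 8.90 ± 0.173 for feed control (SD, n = 3 each), and the NDA and NED arrays did not overlap (exact permutation test, two-sided, p = 0.1, the smallest that 3 against 3 arrays allow). The 18S ribosomal RNA probe signal was 7.46 ± 2.19 with NDA, 9.62 ± 2.38 with NED and 6.39 ± 0.242 in feed controls (SD, n = 3 each, log2), with high values on NDA array 4 and NED arrays 12 and 14. The 3′ minus 5′ signal of Gapdh, a sign of RNA breakage, was 0.199 ± 0.173 with NDA, 0.445 ± 0.0674 with NED and 0.0770 ± 0.0630 in feed controls (SD, n = 3 each, log2). With the RNA integrity number as a covariate 93 genes were called, and without the 5 arrays of high 18S signal in the series, which leaves NED array 15 alone in its group, 99 were called. Because the RNA integrity number separates the 2 groups wholly, this covariate is largely confounded with the compound. Its fit kept the direction of all 666 main calls, with a median standard error of 0.164 against 0.126. The part of RNA quality in the differences was not tested beyond these fits, and counts under them are given with the main gene groups. Fits without a single array called between 313 genes (without NDA array 5) and 550 (without NDA array 4), with 359 called without NED array 14, 349 without NED array 15 and 425 without NDA array 2. Of the 666 calls, 304 were shared by the fit without NDA array 5, 328 by that without NED array 14, 326 by that without NED array 15 and 374 by that without NDA array 2. The set of 225 genes called in all 6 of these fits held 157 higher and 68 lower genes.

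**Figure D2:**
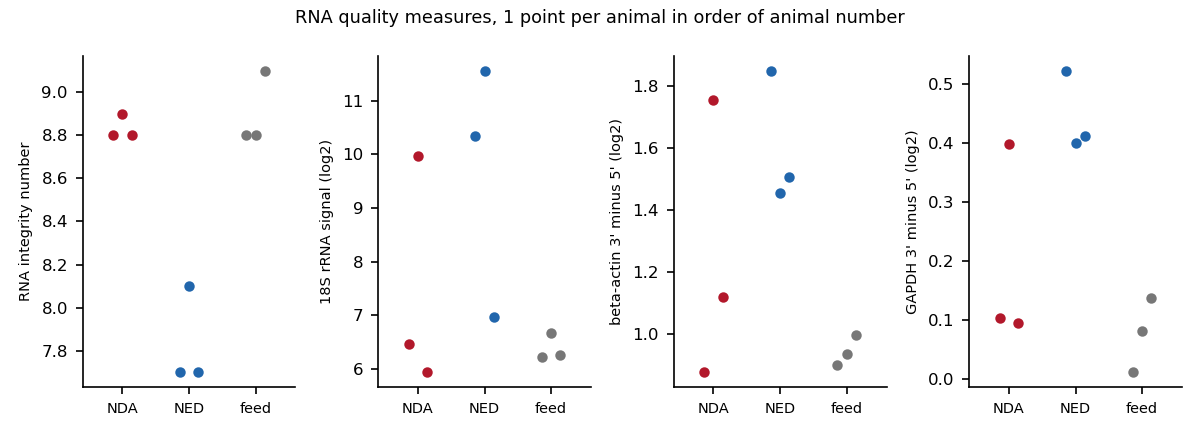
RNA integrity number, 18S signal (log2) and the 3′ minus 5′ signals of beta-actin and Gapdh (log2) are shown on the vertical axes, 1 point per array, for the NDA, NED and feed control groups from left to right. NED arrays lie at 7.7 to 8.1 in RNA integrity number and NDA arrays at 8.8 to 8.9.

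Cyp1a1 was higher with NDA than with NED, while Cyp1a2 did not pass. Cyp1a1, which oxidises planar aromatic compounds, read 5.88, 7.46 and 7.63 on NDA arrays, against 3.69, 3.91 and 4.16 on NED arrays, and 3.47, 3.87 and 3.95 on feed control arrays. The NED and feed control values overlapped and lay below the lowest array median, a level taken here as not shown above background, while every NDA array was well above it. The difference was 3.07 ± 0.291 (SE, limma adjusted p = 3.96e-06), and the NDA mean of Cyp1a1 stood 6.66-fold above the background level. Cyp1a2, the main liver enzyme that N-hydroxylates arylamines, read 13.24, 13.81 and 13.57 with NDA, 13.40, 13.34 and 13.43 with NED, and 11.93, 11.80 and 12.20 in feed controls. The NDA and NED arrays overlapped and both groups lay above all 3 feed control arrays. The difference in Cyp1a2 between the compounds was 0.15 ± 0.126 (SE; limma adjusted p = 0.536), with a 95% interval of -0.11 to 0.42. With the clock covariate described further on, Cyp1a2 passed, at 0.51 (adjusted p = 0.0453), and 4 rather than 3 of the 7 genes of the receptor axis were called. Against feed control, Cyp1a2 rose by 1.56 with NDA and by 1.41 with NED (limma adjusted p = 2.23e-07 and 1.72e-05); both comparisons share the same control arrays, and the median of all genes lay 0.175 above control for NDA and 0.155 for NED. Tiparp, another gene the receptor induces, did not pass, at 6.23 on average with NDA, 6.71 with NED and 5.89 in feed controls; it was picked after its values were seen.

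Of 23 measured genes of aromatic amine metabolism, 7 were higher with NDA, 1 was lower and 15 did not pass, with a median difference of 0.15. Aox1, a molybdenum enzyme that oxidises nitrogen heterocycles and aldehydes, read 10.40, 10.64 and 10.78 with NDA, 8.55, 8.36 and 8.41 with NED, and 8.54, 8.67 and 8.11 in feed controls. NED and feed control were level for Aox1 and NDA stood 4.50-fold above NED (difference 2.17 ± 0.128, SE; limma adjusted p = 1.55e-08). The glucuronosyltransferase Ugt2b35 read 11.74, 11.69 and 11.79 with NDA and 10.87, 10.71 and 10.44 with NED, a difference of 1.07 ± 0.145 (SE; adjusted p = 0.000228). Smaller rises were called for Ugt2b5 (0.56), Ugt2b34 (0.49) and the flavin monooxygenases Fmo5 (0.47) and Fmo1 (0.45). Fmo5 lost its call without NED array 14 or 15 or NDA array 4, and Fmo1 without any 1 of the NED arrays or NDA arrays 2 or 5. Maoa, which deaminates monoamines, was lower by a difference of -0.42 (adjusted p = 0.0234), a call lost without NED array 12 or 15 or NDA array 2 or 5. Other members did not pass, with differences of 0.12 for Aox3, 0.26 for Ugt2b1, 0.24 for Ugt2b36 and 0.11 for Maob. The acetyltransferases did not pass either: Nat1 differed by 0.10 (95% interval -0.26 to 0.46) and Nat2 by -0.07 (-0.31 to 0.17). Sult1a1, the phenol sulfotransferase, differed by 0.06 (-0.16 to 0.27), at averages of 12.52 with NDA, 12.46 with NED and 12.18 in feed controls. Intervals of these 3 genes exclude a 1.5-fold difference in either direction. With the RNA integrity covariate, 5 members stayed called higher, and Cyp1a1, Aox1 and Ugt2b35 kept their calls in every covariate and single-array fit.

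The promoter of Cyp1a1 is shown because a match to the short core of the receptor's motif lies near its start. RefSeq promoters (GRCm38.p6, from 250 bases before to 50 after each start) were searched on both strands for the xenobiotic response element core GCGTG, which 32.4% of 32851 promoters hold. Capitals mark the match, which spans positions -54 to -50 with the start counted as 0, at chr9:57697547-57697575 on the plus strand.
Cyp1a1: tcagataaggagGCGTGgccaacagacac
The search describes letters only and not a bound site. Counting Cyp1a1, the core was found in 4 of the 6 genes of the receptor axis with a searched promoter, against 53.6% of 9779 tested genes.

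NRF2 targets were the gene group with the most calls. Of 29 measured members, 22 were higher with NDA, none was lower and 7 did not pass, with a median difference of 1.00 against -0.00 for all genes. The count was 14 with the RNA integrity covariate, 18 with the clock covariate, 10 without the arrays of high 18S signal, and 20 to 22 when single arrays were left out. The pattern covered conjugation, glutathione supply, reductases and efflux. Abcc4, Gstm3, Gsta2 and Nqo1 passed against feed control with both compounds, and NDA gave the higher level of each.

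Ugdh makes the UDP-glucuronic acid that glucuronosyltransferases use. It read 11.40, 11.75 and 12.10 with NDA, 9.76, 9.36 and 9.74 with NED, and 9.54, 9.35 and 9.28 in feed controls. All NDA arrays lay above all NED arrays by at least a full log2 unit (difference 2.13 ± 0.143, SE; adjusted p = 5.21e-08, 4.38-fold). Abcc4, a pump that exports organic anions and conjugates into blood, read 7.29, 8.10 and 8.29 with NDA, 6.02, 4.39 and 5.23 with NED, and 4.03, 3.91 and 3.77 in feed controls. The order was NDA, then NED, then feed control with no overlap (NDA minus NED 2.68 ± 0.287, SE; adjusted p = 1.66e-05, 6.43-fold). Abcc4 was also higher with NED than in feed controls (difference 1.31, adjusted p = 0.00428). Nqo1, the quinone reductase used as a marker of NRF2 and of the aryl hydrocarbon receptor, read 7.55, 8.47 and 8.13 with NDA, 6.86, 6.60 and 6.74 with NED, and 6.43, 5.50 and 6.00 in feed controls. It followed the same order, with a difference of 1.31 ± 0.228 (SE; adjusted p = 0.00201), and did not pass without the arrays of high 18S signal.

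Among 20 glutathione S-transferases, which couple glutathione to electrophiles, 10 were higher with NDA, none was lower and 10 did not pass, with a median difference of 0.53. Gstm3 read 12.04, 12.78 and 12.98 with NDA, 10.07, 10.40 and 10.42 with NED, and 9.40, 9.08 and 9.61 in feed controls (difference 2.31 ± 0.255, SE; adjusted p = 2.22e-05, 4.95-fold). Gstm2 read 10.25, 10.25 and 10.50 with NDA against 8.52, 8.68 and 8.67 with NED (1.71 ± 0.105, SE; adjusted p = 1.55e-08). In both genes the lowest NDA array exceeded the highest NED array. Gstm1 and Gstp1, abundant liver isoforms, differed by 1.01 ± 0.0971 and 1.04 ± 0.0852 (SE; adjusted p = 3.96e-06 and 8.53e-07). Gsta2, Gstm4 and Gstm6, named after their values were seen, differed by 1.74, 1.54 and 1.03, and Gsta2 had means of 12.07 with NDA, 10.34 with NED and 8.67 in feed controls. The theta isoform Gstt1 did not pass, at a difference of 0.07 and a 95% interval of -0.13 to 0.26, and neither did Mgst1 (0.17). The mu-class genes are near-identical in sequence in parts, and some of their probe sets can pick up more than 1 of them. Between 7 and 11 transferases were called higher when single arrays were left out, 6 with the RNA integrity covariate and 5 without the arrays of high 18S signal.

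Several further NRF2 targets were chosen for description after their values were seen. Gclc, the catalytic subunit of the rate-limiting enzyme of glutathione synthesis, read 12.40, 11.72 and 12.62 with NDA against 11.14, 10.78 and 10.67 with NED (1.39 ± 0.196, SE; adjusted p = 0.000369). Its partner subunit Gclm differed by 0.61 (adjusted p = 0.0255), glutathione reductase Gsr by 0.70, thioredoxin reductase Txnrd1 by 0.79, sulfiredoxin Srxn1 by 1.02 and the NADPH-producing Pgd by 0.75. Malic enzyme Me1, named by rule, was 2.00-fold higher with NDA, a call lost with the RNA integrity covariate and without the arrays of high 18S signal. Hmox1, the heme oxygenase that NRF2 also controls, did not pass, with averages of 6.24 with NDA, 6.33 with NED and 6.06 in feed controls and a 95% interval of the difference of -0.42 to 0.24.

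Of 14 carbonyl reductases, aldo-keto reductases and epoxide hydrolases, 6 were higher with NDA and none was lower, with a median difference of 0.42. Ephx1, which opens epoxides to diols, read 12.25, 12.47 and 12.75 with NDA, 10.97, 10.87 and 11.00 with NED, and 10.82, 10.81 and 10.40 in feed controls (1.54 ± 0.146, SE; adjusted p = 3.96e-06). Akr1c19 differed by 1.68 ± 0.182 and Cbr1 by 0.89 ± 0.127 (SE; adjusted p = 1.89e-05 and 0.000412). Cbr3, not shown above background with NED, was at least 2.01-fold higher with NDA. Ephx2, the soluble epoxide hydrolase, did not pass (0.09). The count of higher members was 4 with the RNA integrity covariate, where Cbr3 was among those lost, and 2 without the arrays of high 18S signal, where Cbr1 and Cbr3 were among those lost. The breast cancer resistance transporter Abcg2 read 9.09, 8.91 and 9.15 with NDA against 8.01, 7.89 and 7.70 with NED (1.18 ± 0.168, SE; adjusted p = 0.000378). Slc22a7, an organic anion uptake carrier, was lower: it read 7.38, 7.11 and 7.45 with NDA, 8.88, 8.97 and 8.33 with NED, and 8.70, 9.18 and 8.52 in feed controls. NED and feed control overlapped for Slc22a7, and the difference was -1.41 ± 0.225 (SE, limma adjusted p = 0.00103). The Slc22a7 call was lost with the RNA integrity covariate (difference -1.20) and without the arrays of high 18S signal (-0.91). Over the 17 hepatic transporters, 2 were higher, 2 were lower and 13 did not pass; the other lower gene, Abcc6 (-0.44), lost its call without any 1 of the NED arrays or NDA arrays 2 or 5.

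**Figure D3:**
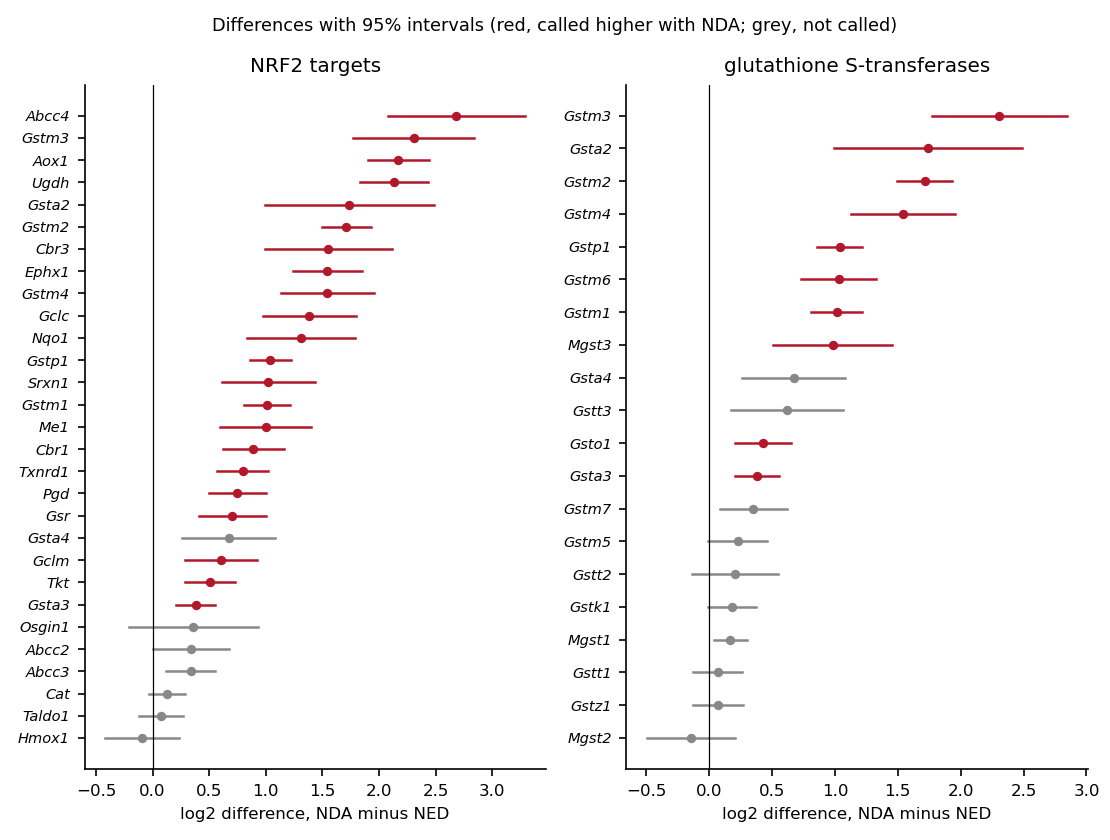
Log2 differences of NDA minus NED with 95% intervals (horizontal axis) are drawn for the measured NRF2 targets and glutathione S-transferases, in red where called higher with NDA and in grey where not called. Abcc4 lies at 2.68 and Hmox1 at -0.09.

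Windows around the antioxidant response element core TGACNNNGC are shown for Ugdh and Abcc4, whose differences were among the largest of the group. The core lies in a promoter of 9 of the 24 NRF2 targets in the table (37.5%) and of 16.9% of 9779 tested genes, and 12.4% of all 32851 promoters hold it. The same core lies in 5 of 13 core clock genes (38.5%). Capitals mark the match, and the second window shows it as its reverse complement. The first spans positions -132 to -124, at chr5:65435954-65435986 on the minus strand; the second spans -25 to -17 at chr14:118706224-118706256 on the minus strand.
Ugdh: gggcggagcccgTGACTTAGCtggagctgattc
Abcc4: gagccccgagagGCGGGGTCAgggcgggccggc
A match describes these letters and not a bound site. The list was written from knowledge of NRF2, so its share of matches is not independent of how the genes were chosen.

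Of 20 cytochrome P450 and receptor genes of the CAR and PXR pathways, none was called higher, 2 (10.0%, against 5.47% of all genes) were lower (Cyp2c38 and the receptor partner Rxra) and 18 did not pass, with a median difference of -0.01. Neither call held without any 1 of the NED arrays or NDA array 2. Cyp3a11, a main drug-oxidising enzyme, read 13.52, 13.46 and 13.58 with NDA, 13.42, 13.48 and 13.49 with NED, and 13.44, 13.42 and 13.23 in feed controls. Its 95% interval of the difference was -0.07 to 0.19. Cyp2b10, the CAR marker, named after its values were seen, averaged 9.99 with NDA, 9.42 with NED and 8.18 in feed controls, and its interval of -0.20 to 1.33 leaves room for a difference of more than 2-fold. Slco1a1, an uptake carrier, likewise named afterwards, averaged 4.88 with NDA, 5.99 with NED and 8.99 in feed controls. It was lower than feed control with both compounds (differences -4.11 and -3.00; adjusted p = 0.000109 and 0.00252), and NDA against NED did not pass (-1.11, 95% interval -2.35 to 0.13).

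Among genes called higher, Snhg11, a host transcript of small nucleolar RNAs, had the largest fitted difference (3.20), which rests on an NED mean below background. It read 6.29, 7.82 and 7.40 with NDA, 4.34, 3.92 and 3.66 with NED, and 3.69, 3.58 and 3.61 in feed controls. With the 2 NED arrays below background set to that level, the NDA mean was 7.40-fold above the NED mean. A second probe set of Snhg11 differed by 0.19. The uncharacterised transcript 9130409I23Rik read 8.72, 8.93 and 8.93 with NDA, 6.75, 6.66 and 6.24 with NED, and 5.58, 5.32 and 4.91 in feed controls, in the same order as Abcc4 and without overlap. Gpx6, a glutathione peroxidase, was at least 3.94-fold higher with NDA. The water and peroxide channel Aqp8 read 11.14, 11.29 and 11.04 with NDA against 9.45, 9.35 and 9.19 with NED, a difference of 1.83 ± 0.191 (SE; adjusted p = 1.18e-05). Snhg11, 9130409I23Rik, Gpx6 and Aqp8 kept their calls in every covariate and single-array fit.

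**Figure D4:**
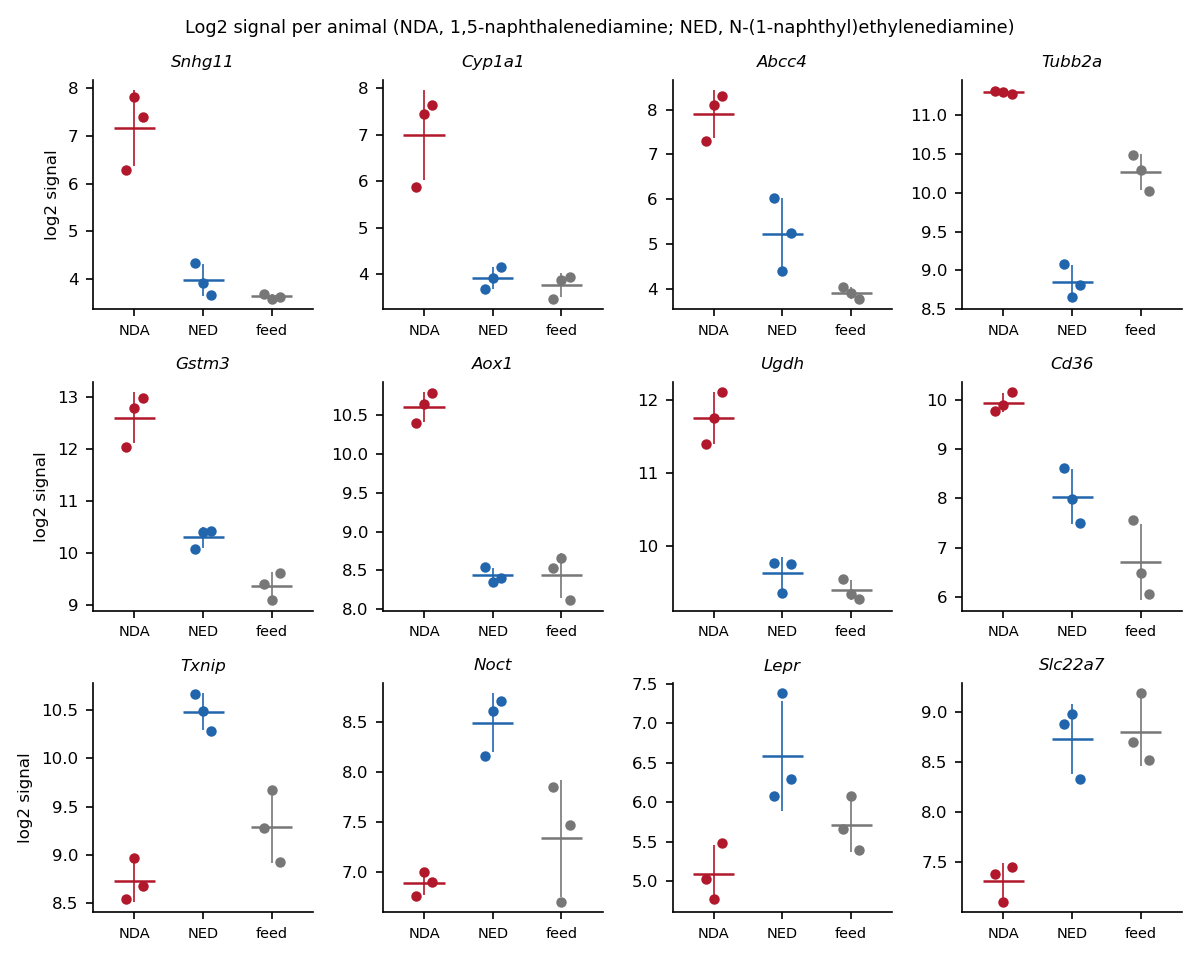
Log2 signals of leading genes are plotted for each array, with NDA, NED and feed control from left to right, a horizontal bar at each group mean and a vertical bar of 1 SD on either side. For Cyp1a1, Aox1 and Ugdh the NED and feed control points lie close together, and for Abcc4 NED lies between the other groups.

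Some tubulins, the subunits of microtubules, were higher with NDA. Tubb2a read 11.32, 11.30 and 11.27 with NDA, 9.09, 8.66 and 8.81 with NED, and 10.48, 10.30 and 10.02 in feed controls. Feed control lay between the compounds without overlap, and the difference was 2.45 ± 0.276 (SE; adjusted p = 2.78e-05, 5.45-fold). Against feed control, Tubb2a rose with NDA (1.03, adjusted p = 0.00771) and fell by 1.42 with NED (adjusted p = 0.00245). Tubb4b read 10.15, 10.21 and 10.14 with NDA, 8.49, 8.64 and 8.66 with NED, and 8.80, 8.96 and 8.80 in feed controls (1.57 ± 0.135, SE; adjusted p = 1.28e-06), although a second Tubb4b probe set differed by only 0.03. Tuba4a was 1.63-fold higher and Tuba8 at least 1.38-fold higher with NDA, and the Tuba8 call was lost without any 1 of the NED arrays or NDA arrays 4 or 5. Neither passed with the RNA integrity covariate or without the arrays of high 18S signal. Of 12 tubulin and actin genes, 4 were higher and none was lower; Actb, at averages of 12.89 with NDA and 12.69 with NED, did not pass.

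Of 20 targets of p53, the tumour suppressor that answers DNA damage, 4 were higher with NDA and 16 did not pass. Calls made up 20.0% of the list, against 5.47% of all genes, and the median difference was 0.21. Cdkn1a, an inhibitor of the cell cycle, read 7.99, 8.46 and 8.48 with NDA, 5.64, 5.03 and 6.70 with NED, and 6.28, 8.26 and 6.90 in feed controls. NED lay below NDA on every array, and 1 feed control array reached the NDA level. The difference was 2.52 ± 0.530 (SE; adjusted p = 0.00854) and did not pass without NED array 14, with the RNA integrity or clock covariate, or without the arrays of high 18S signal. Ccng1 (0.57), Aen (0.57) and Mdm2 (0.41) differed less, and their calls were lost without any 1 of NED arrays 12, 14 or 15 or NDA arrays 4 or 5. The count of p53 targets was 0 without NED array 14 and 1 without NED array 12 or 15 or NDA array 4 or 5, and 0 with the RNA integrity covariate. Btg2, picked after its values were seen, averaged 8.88 with NDA, 8.20 with NED and 7.58 in feed controls and did not pass (0.68, 95% interval 0.13 to 1.24).

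Of 20 cell cycle and replication genes, none was higher with NDA and 1 was lower (5%, against 5.47% of all genes), with a median difference of 0.03. That gene was Ccnd1, the cyclin of entry into the cycle, which read 7.45, 7.32 and 7.27 with NDA, 8.47, 8.74 and 8.65 with NED, and 8.34, 9.19 and 8.75 in feed controls. NED and feed control overlapped, and the difference was -1.27 ± 0.217 (SE, limma adjusted p = 0.0018). The Ccnd1 call was lost with the RNA integrity covariate (difference -0.89), the clock covariate (-0.99) and without the arrays of high 18S signal (-1.29). Pcna differed by 0.02, and Mki67, named after its values were seen, lay below background in all 3 groups.

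Of 17 genes of lipid uptake and storage, 3 were higher with NDA (Cd36, Pparg and Lpl), Dgat2 was lower (-0.45) and 13 did not pass. Calls made up 23.5% of the list, against 5.47% of all genes, and the median difference was 0.01. Dgat2 lost its call without NED array 15 or NDA array 2 or 5. Cd36, the fatty acid translocase, read 9.77, 9.90 and 10.16 with NDA, 8.61, 8.00 and 7.50 with NED, and 7.57, 6.49 and 6.07 in feed controls. The lowest NDA array exceeded the highest NED array, and NED array 15 overlapped feed control (NDA minus NED 1.91 ± 0.306, SE; adjusted p = 0.00108). Pparg, a receptor that drives fat storage, read 7.03, 6.73 and 7.32 with NDA, 6.11, 5.81 and 5.62 with NED, and 5.56, 5.41 and 5.14 in feed controls (1.18 ± 0.181, SE; adjusted p = 0.000769). Lpl, which frees fatty acids from circulating triglyceride, averaged 9.66 with NDA, 8.12 with NED and 7.10 in feed controls. Its NDA minus NED difference was 1.54 ± 0.307 (SE, limma adjusted p = 0.00608). The Lpl call was lost with the RNA integrity covariate (difference 1.66) and without the arrays of high 18S signal (1.41). It was also lost with the clock covariate, which moved the difference to 0.80 (adjusted p = 0.287). Plin2, which coats lipid droplets, differed by -0.05.

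In fatty acid synthesis, 3 of 16 genes were higher, 1 was lower and 12 did not pass. Scd2, a desaturase, was at least 3.20-fold higher with NDA (averages 5.93 with NDA, 4.05 with NED and 3.83 in feed controls), while Scd1, its main liver relative, read 13.53 with NDA and 13.39 with NED on average and did not pass (95% interval -0.11 to 0.40). Of 19 genes of cholesterol synthesis and uptake, 5 were higher with NDA and none was lower, with a median difference of 0.53. Sqle, squalene epoxidase, read 8.72, 8.49 and 8.82 with NDA, 7.44, 6.96 and 7.44 with NED, and 7.27, 6.99 and 7.51 in feed controls (1.40 ± 0.216, SE; adjusted p = 0.000769), with NED and feed control overlapping. Lss (0.89), Idi1 (0.84), Pmvk (0.79) and Fdps (0.65), further enzymes of the pathway, were also called; Fdps was named after its values were seen. The count of cholesterol genes was 2 without NED array 14 or NED array 15, 3 without NDA array 2 or 4, 7 without NED array 12, 1 with the RNA integrity covariate and 0 without the arrays of high 18S signal. Cyp7a1, the rate-limiting enzyme of bile acid synthesis, named after its values were seen, averaged 6.54 with NDA, 8.16 with NED and 6.65 in feed controls and did not pass (adjusted p = 0.087).

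Iron and heme genes contributed 5 calls among 20 members (25.0%, against 5.47% of all genes), all higher with NDA. The median difference of the list was -0.03. Fth1, the ferritin heavy chain and an NRF2 target, read 13.78, 13.71 and 13.80 with NDA, 13.25, 13.27 and 13.25 with NED, and 13.43, 13.30 and 13.19 in feed controls. The step in Fth1 was small but cleanly separated (0.51 ± 0.0609, SE; adjusted p = 5.99e-05). Hfe, a regulator of iron sensing, differed by 0.69 ± 0.102 and biliverdin reductase Blvrb by 0.78 ± 0.115 (SE; adjusted p = 0.00057 for each). Tfrc, the transferrin receptor, averaged 7.96 with NDA, 6.64 with NED and 6.31 in feed controls, and its call (1.32 ± 0.328, SE; adjusted p = 0.0238) was lost when any single array was left out. The iron importer Slc11a2 was also called (0.73, adjusted p = 0.033) and was named after its values were seen. Hamp, which encodes the iron hormone hepcidin, did not pass (-0.02). The count of iron and heme genes was 3 without NED array 14 or 15 or any 1 NDA array, and 1 without the arrays of high 18S signal.

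Clock genes formed a second pattern, in which NED stood apart from both other groups for several genes. The liver clock is driven by ARNTL with CLOCK or NPAS2, which act on E-boxes and induce the PER and CRY repressors and the factors DBP, TEF and HLF, whose targets carry D-boxes. Arntl read 7.99, 7.61 and 7.98 with NDA, 5.71, 5.54 and 5.96 with NED, and 7.99, 7.48 and 6.86 in feed controls. NED lay below all NDA and feed control arrays in Arntl (difference 2.12 ± 0.406, SE, limma adjusted p = 0.0044), and a second Arntl probe set differed by 0.37 and was not called. Npas2 read 4.97, 4.80 and 4.89 with NDA, 2.99, 3.32 and 2.97 with NED, and 5.04, 5.00 and 4.18 in feed controls, at least 1.55-fold higher with NDA (adjusted p = 0.00492). Per3 ran the other way, at 3.89, 4.51 and 4.09 with NDA, 5.37, 5.91 and 5.57 with NED, and 4.38, 4.09 and 4.30 in feed controls, a difference of -1.45 (adjusted p = 0.00613) and at least 2.42-fold lower with NDA. For Npas2 and Per3, as for Arntl, NDA and feed control overlapped and NED did not meet either. Clock (0.83) and Cry1, below background with NED and at least 1.93-fold higher, were called too, and both calls were lost without any 1 of the NED arrays or NDA arrays 2 or 5.

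In all, 4 of 16 core clock genes were higher, 1 was lower and 11 did not pass, with a median difference of -0.13; among 17 clock output genes 1 was higher, 5 were lower and 11 did not pass, with a median of -0.51. Dbp had the widest difference of any gene tested and did not pass: it read 4.40, 7.53 and 5.33 with NDA, 9.45, 10.10 and 10.23 with NED, and 4.00, 4.11 and 7.53 in feed controls. NED lay above all NDA and feed control arrays, and the spread within those groups was wide (-4.18 ± 1.31, SE, limma adjusted p = 0.0692). Noct, a deadenylase with a daily rhythm, read 6.76, 7.00 and 6.90 with NDA, 8.15, 8.61 and 8.70 with NED, and 7.84, 6.70 and 7.47 in feed controls (-1.60 ± 0.344, SE; adjusted p = 0.00974). Tef averaged 7.98 with NDA, 9.39 with NED and 7.77 in feed controls (-1.42, adjusted p = 0.0383), a call lost without any 1 of the NED arrays or NDA arrays 2 or 5. Nr1d1, the REV-ERB alpha repressor, read 5.62, 8.31 and 7.30 with NDA, 8.06, 8.09 and 8.19 with NED, and 7.24, 7.01 and 7.64 in feed controls and did not pass, with overlapping NDA and NED arrays.

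A clock gene index, the mean log2 signal of Per1, Per2, Per3, Nr1d1, Nr1d2, Dbp and Tef minus that of Arntl, Npas2, Clock, Cry1 and Nfil3, was -1.47, 0.33 and -0.41 on NDA arrays, 2.21, 2.39 and 2.68 on NED arrays, and -1.13, -0.86 and 0.89 on feed control arrays. Only NED was high among these 3 groups, and elsewhere in the series corn oil arrays 24 and 25 reached 2.45 and 2.57 while array 22 of the same group was at -0.48. The labels give no time of day of sampling, so a compound effect and a different sampling hour cannot be told apart. With the index as a covariate 177 genes were called, and Tef and Cry1, which enter the index, turned to differences of 0.07 and -0.01 without passing. All 5 called core clock genes (Arntl, Npas2, Clock, Cry1 and Per3) enter the index, so the loss of their calls with this covariate follows in part from its construction. No core clock gene was called with the RNA integrity covariate. The count of higher core clock genes was 2 without any 1 array except NDA array 4, and the count of lower output genes was 3 without NED array 14 and 2 without NED array 15 or NDA array 2 or 5.

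**Figure D5:**
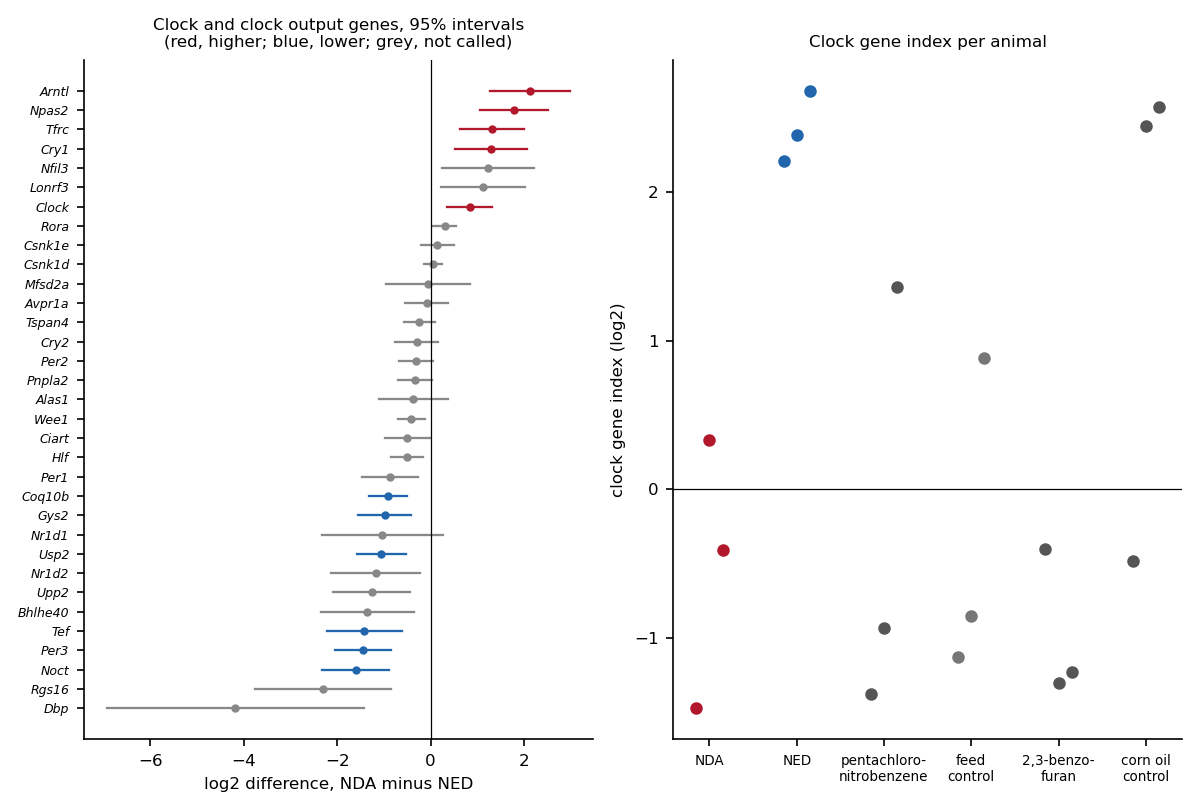
The left panel draws log2 differences of NDA minus NED with 95% intervals for core clock and clock output genes, in red where called higher, blue where called lower and grey where not called. The right panel shows the clock gene index of each array in all 6 groups, where the NED arrays lie at 2.21 to 2.68.

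Clock motif windows are shown for genes that were called in opposite directions. The D-box TTATGTAA lies in 0.938% of all 32851 promoters and the E-box CACGTG in 7.15%; by gene, 3 of 13 core clock genes and 4 of 15 output genes with a promoter in the table hold the E-box, against 11.7% of tested genes. Both strands were searched, and capitals mark the match. The windows are chr4:151044851-151044882 on the minus strand, chr15:81811264-81811293 on the plus strand and chr10:85185097-85185126 on the minus strand. Matches span -205 to -198, -138 to -133 and -60 to -55.
Per3: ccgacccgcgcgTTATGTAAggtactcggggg
Tef: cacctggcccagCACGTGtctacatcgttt
Cry1: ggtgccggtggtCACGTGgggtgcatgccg
Per3 and Tef were lower and Cry1 was higher with NDA, and the matches describe letters in these windows only.

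Txnip and Ppp1r3g were among the genes with the largest negative differences. Txnip, which belongs to none of the lists, an inhibitor of thioredoxin and of glucose uptake, read 8.54, 8.97 and 8.68 with NDA, 10.66, 10.48 and 10.28 with NED, and 9.28, 9.67 and 8.92 in feed controls. The NDA and NED arrays were more than a log2 unit apart (-1.75 ± 0.230, SE; adjusted p = 0.000194), and the call held in every covariate and single-array fit and was lost without the arrays of high 18S signal. Ppp1r3g, a glycogen-targeting subunit of protein phosphatase 1, read 5.30, 7.75 and 8.12 with NDA, 9.66, 10.45 and 9.19 with NED, and 5.15, 6.64 and 6.62 in feed controls. Its difference was -2.71 ± 0.669 (SE, limma adjusted p = 0.0229), and the call was lost without NED array 12 or 14 or NDA array 2. Ppp1r3c, another such subunit, ran the other way at 10.38, 10.04 and 9.98 with NDA, 8.46, 8.75 and 8.76 with NED, and 10.08, 9.61 and 9.28 in feed controls (1.48 ± 0.253, SE; adjusted p = 0.00182). With the clock covariate the Ppp1r3c difference was 0.66 and did not pass (adjusted p = 0.121). Gys2, the liver glycogen synthase, was 1.97-fold lower with NDA, and Pklr, the liver pyruvate kinase, was 1.58-fold lower. Of 19 genes of gluconeogenesis and glycogen, 2 were higher, 3 were lower (Ppp1r3g, Gys2 and Pklr) and 14 did not pass, Pck1 among them (-0.25, 95% interval -0.59 to 0.10). The count of lower members was 0 without NED array 14 and 1 without NDA array 2 or 5, and none of the 19 was called with the RNA integrity covariate or without the arrays of high 18S signal.

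Other genes lower with NDA included the leptin receptor Lepr, which averaged 5.09 with NDA, 6.58 with NED and 5.71 in feed controls (-1.49, adjusted p = 0.00248). Ulk1, a kinase that starts autophagy, was 2.46-fold lower. The glutamate carrier Slc1a2 read 7.40, 7.73 and 7.19 with NDA against 8.56, 8.84 and 8.76 with NED. Slc1a2 was the only called gene of 16 in the list of genes expressed around the central vein (6.25%, against 5.47% of all genes). Hao2 and Acot3, female-biased genes of peroxisomal lipid metabolism, were 3.39-fold and 2.77-fold lower. Elovl3, a male-biased fatty acid elongase that also follows the clock, averaged 7.22 with NDA, 5.37 with NED and 6.94 in feed controls (1.85, adjusted p = 0.00609). Ulk1 lost its call without NED array 14 or 15 or NDA array 2, and Hao2 without NED array 12 or 15 or NDA array 2. With the RNA integrity covariate none of Lepr, Ulk1, Slc1a2, Hao2, Acot3 and Elovl3 passed.

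Secreted acute phase proteins were lower with NDA in part. Of 24 members, 1 was higher (Orm3), 5 were lower and 18 did not pass. Calls made up 25.0% of the list, against 5.47% of all genes, and the median difference was -0.26. Orm3 was named after its values were seen, and its call was lost when any single array was left out. Itih3, a serum inhibitor chain, read 12.01, 11.64 and 11.65 with NDA, 12.78, 12.58 and 12.57 with NED, and 12.24, 12.87 and 12.23 in feed controls (-0.88 ± 0.166, SE; adjusted p = 0.00401). Lbp, the lipopolysaccharide-binding protein, averaged 9.78 with NDA, 10.49 with NED and 10.21 in feed controls (-0.71, adjusted p = 0.00395), and Itih4 and Saa4 differed by -0.53 and -0.57. The count of lower acute phase genes was 4 or 5 without single arrays and 0 with the RNA integrity covariate or without the arrays of high 18S signal. Of 21 interferon response genes, Cxcl9 (-0.79), Gbp3 (-0.61) and Gbp2 were lower and none was higher. That is 14.3% called, against 5.47% of all genes, with a median difference of -0.32. Cxcl9, a chemokine that draws T cells, averaged 6.37 with NDA, 7.16 with NED and 7.54 in feed controls. Gbp2, below background on all 3 NDA arrays, was at least 1.30-fold lower; it lost its call without NDA array 5, and Gbp3 without NDA array 4 or 5 or NED array 12 or 14. With the RNA integrity covariate none of the 3 passed.

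Markers of liver cell types were compared in the same fit. Of 11 hepatocyte markers none was called, against 5.47% of all genes. Alb read 14.49 on average with NDA and 14.47 with NED, with a 95% interval of the difference of -0.08 to 0.10. Of 19 Kupffer cell and macrophage markers, 3 were lower with NDA (Csf1r, Laptm5 and Mpeg1) and 16 did not pass. Calls made up 15.8% of these markers, against 5.47% of all genes. Differences of the markers ran from -0.62 to -0.12, with a median of -0.44. Their mean log2 signal was 7.56, 7.18 and 7.00 on NDA arrays, 7.80, 7.60 and 7.50 on NED arrays, and 7.55, 7.77 and 7.21 on feed control arrays, so NDA array 2 overlapped NED. The summed linear signal of the 19 markers ran from 3679 to 5526 with NDA, 5415 to 6586 with NED, and 4585 to 7148 in feed controls. No Kupffer marker was called without NDA array 5, NED array 12 or NED array 14, or with the RNA integrity covariate, and 0 to 4 were called over all single-array fits. Median differences of the macrophage, acute phase and interferon lists were -0.44, -0.26 and -0.32. Whether these lists moved together across arrays was not tested, and neither was a part of the macrophage signal in the other differences. None of 15 endothelial, 15 stellate cell or 6 neutrophil markers was called, against 5.47% of all genes. At that share, lists this short would hold few calls or none. The immunoglobulin heavy chain gene Ighm was the 1 called lymphocyte marker of 7 (1.08), a call lost with the RNA integrity covariate. Read from a probe set without an _x_at, _s_at or _a_at suffix, Ighm differed by 0.07 and did not pass. Of 3 bile duct (cholangiocyte) markers, the keratin Krt19 was at least 1.44-fold higher with NDA. The other 2 did not pass, with a lowest difference of -0.14. The Krt19 call was lost without NED array 12 or 15 or NDA array 5, and with each of the 4 covariates.

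Of 18 genes of the endoplasmic reticulum stress list 1 was called (5.56%, against 5.47% of all genes). That gene was Ddit3 (0.54), which encodes the transcription factor CHOP and no chaperone, and the chaperone Hspa5 differed by 0.13. Of 13 cytosolic heat shock proteins only Hspb1 was called (7.69%, against 5.47% of all genes). Hspb1 read 9.56, 9.22 and 8.89 with NDA, 7.70, 8.16 and 7.95 with NED, and 8.78, 8.83 and 8.74 in feed controls (1.29 ± 0.203, SE, limma adjusted p = 0.000921). Feed control thus lay between the compounds in Hspb1, and the call was lost with the clock covariate and without the arrays of high 18S signal. Of 8 metallothionein and zinc genes 2 were called, the transporters Slc30a10 (0.78, lost without NED array 12 or 15 or NDA array 2 or 5) and Slc39a14 (-0.90), and neither passed with the RNA integrity covariate. Metallothioneins Mt1 and Mt2, which bind zinc, averaged 12.09 and 10.33 with NDA, 12.70 and 11.10 with NED, and 10.81 and 8.57 in feed controls, and neither passed. Their arrays overlapped, with intervals of -1.70 to 0.48 for Mt1 and -2.21 to 0.65 for Mt2. Of 27 proteasome subunits, 4 (14.8%, against 5.47% of all genes) were higher (Psmd14, Psmd11, Psma1 and Psmd1, at most 0.53). The median was 0.18, with 2 calls without NED array 15 or NDA array 2 or 5, and no call with the RNA integrity covariate. In the PPAR alpha and fatty acid oxidation list, Cpt2 was higher (0.42), Cpt1a was lower (-0.59) and 19 of 21 genes did not pass. The called share of this list was 9.52%, against 5.47% of all genes. Cpt2 lost its call without NED array 14 or 15 or NDA array 5, and Cpt1a without NED array 14 or 15 or any 1 of the NDA arrays.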

How the data were processed

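Liver RNA of 18 mice in 6 groups of 3 was measured on Affymetrix mouse expression arrays, per the labels. The authors deposited 1 log2 signal per probe set and array; the sources used here do not name the scanner software, the background correction or the normalization behind it. The number of arrays limits the precision. Of 45101 probe sets, 64 are controls; 34945 have 1 gene in the platform annotation of 2016, 932 have several and 9160 none, and 34741 symbols were updated through RefSeq gene identifiers. Probe sets above the median of their own array on at least 3 arrays were kept (24396, of which 20712 have 1 gene), and each of 12169 genes was read from its probe set of highest mean.

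Differences were fitted with limma 3.58.1 (R 4.3.3) as 6 group means, with the prior variance allowed to follow the mean signal, which leaves 12 degrees of freedom for the spread. Calls required an adjusted p (Benjamini-Hochberg) under 0.05. The labels give separate animals. The fit was tested on simulated data with known changes. Array measures had exact permutation tests. A mean below 4.25, the lowest median of any array, counts as not shown above background. Arrays of that group below 4.25 were then set to it, and the fold is a lower bound for the group means. That bound does not allow for the spread between arrays.

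The 42 gene lists (784 members, 704 matched, 639 tested) and the comparison itself were chosen with earlier results of these data known, so counts and medians carry no test of a list. Against 5.47% of all genes, calls made up 75.9% of NRF2 targets, 50.0% of glutathione S-transferases and 34.8% of amine genes. They made up 31.25% of core clock, 35.3% of clock output, 33.3% of tubulin and actin, 26.3% of cholesterol and 23.5% of transporter genes. Genes named were the 15 largest called differences in each direction without overlap, the 4 called members with the largest statistic and the 2 brightest other members of each list, and all members of the amine and clock lists. Genes outside this rule are Gsta2, Gstm4, Gstm6, Gclc, Gclm, Gsr, Txnrd1, Srxn1, Pgd, Hmox1, Tiparp, Cyp2b10, Slco1a1, Btg2, Mki67, Fdps, Slc11a2, Cyp7a1 and Orm3. Promoters are those of RefSeq (GRCm38.p6), and 178 of 222 named genes had one. Alternatives changed scaling, filters, probe choice, arrays, weights, covariates and thresholds.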

Additional observations from a re-analysis of the deposited data

How the results depend on the processing

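Over 12169 genes, 666 were called, 427 higher and 239 lower. Counts beyond 1.5 times from these, as total, higher and lower, were 93, 77 and 16 with the RNA integrity covariate, 177, 107 and 70 with the clock index, 99, 69 and 30 without the arrays of high 18S signal, 241, 165 and 76 at an adjusted p under 0.01, and 93, 65 and 28 at 2-fold. An 18S covariate, chosen after seeing the data, gave 434 in all and 128 lower. Lower calls alone moved to 414 with quantile normalization, 392 with centred arrays, 376 with array weights and 130 with the beta-actin covariate. Leaving out single arrays gave 313 to 550 calls, 214 to 364 higher and 92 to 220 lower. With the clock index as covariate, Cry1 turned to -0.0082 (adjusted p = 0.997) and Tef to 0.070 (adjusted p = 0.886); both genes enter the index. Among 222 named genes, the RNA integrity covariate left 145 on the same side of the threshold and 77 no longer past it. Of the 666 called genes, 664 kept their direction with the clock index and 665 with probe sets averaged. With probe sets of _x_at, _s_at and _a_at suffix left out, 571 of the called genes were still tested and 563 kept their direction. The median standard error was 0.126, against 0.164 with the RNA integrity covariate and 0.188 without the high 18S arrays. Genes called in every single-array fit and with all 4 covariates numbered 69, of which 58 were higher. No paired analysis was possible because the groups share no animal numbers. Signals near the array median limit what can be said of weak genes.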
